A study of Mus musculus with 7 samples.

Results

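The Zfp503 and Zfp703 loci are the surroundings of 2 related genes, described here by the binding sites of Shox2 and Pbx that lie there in E12.5 mouse embryos (E, embryonic day). A locus was defined as all peaks whose midpoint fell in a fixed window of the mm9 genome. The Zfp503 window was chromosome 14 from 22.3 to 24 Mb, with the gene near 22.80 Mb, and the Zfp703 window was chromosome 8 from 27 to 28.5 Mb, with the gene near 28.09 Mb. Together the windows held 339 of the 82921 peaks of 3 lists, 212 in the Zfp503 window and 127 in the Zfp703 window. The windows were chosen by the counts of peaks in these lists: they were drawn around 2 of the 10 windows of 1 Mb with the most sites shared by Shox2 and Pbx in the genome, chromosome 14 from 23 to 24 Mb (35 shared sites) and chromosome 8 from 27 to 28 Mb (26 shared sites). Their density of limb peaks and their overlap between Shox2 and Pbx are therefore descriptions, and no test was run on them.

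The study mapped protein binding by ChIP-seq (sequencing of DNA that an antibody pulls down) in freshly dissected embryonic tissue. Shox2 in limb and Shox2 in palate were precipitated through an HA tag, with the sample type labelled Shox2-HA, and Pbx in limb through an antibody against Pbx, with the sample type labelled Pbx. All of these were E12.5. The labels give 1 library per group and do not say how many embryos were pooled, whether limb means fore- or hindlimb, how many copies of the tagged allele the embryos carried or which Pbx proteins the antibody binds. Not analysed here were 4 further libraries: Shox2 from E13.5 limb, Shox2 from mixed limb and palate, an anti-HA ChIP from untagged Shox2+/+ embryos and an input. The lists give positions only, so depth and peak height are unknown, and the tissue labels could not be checked against marker genes.

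Zfp503 (also called Nolz1) and Zfp703 (also called Zeppo1) encode zinc finger proteins of the NET family, whose Drosophila members are Elbow and No ocelli. The proteins act as transcriptional repressors together with Groucho/TLE corepressors. Zfp503 is known from the developing striatum and eye, and the human counterpart of Zfp703 is amplified in a subset of breast cancers. Shox2 is a homeodomain factor needed for the proximal limb skeleton and for the palate. Pbx proteins are TALE homeodomain factors that bind DNA beside other homeodomain proteins.

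In the order of genes in the GRCm38 annotation, the first protein-coding neighbours of Zfp503 are Lrmda and then Kcnma1, which encodes a calcium-activated potassium channel, on the side of higher coordinates. A430057M04Rik, Comtd1 and Vdac2, a mitochondrial membrane channel, follow each other on the side of lower coordinates. Zfp703 has Erlin2, an endoplasmic reticulum membrane protein, Plpbp and Adgra2, an adhesion receptor, on its higher side. On its lower side the next protein-coding gene is Thap1, a zinc finger transcription factor, and the 13 entries between them are noncoding RNAs or pseudogenes. No mm9 annotation was used here, so no peak below was placed in an exon, an intron or a promoter, or assigned to a gene.

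The sequence under the peaks could not be read without an mm9 genome. The promoter of Zfp503 is shown because it gives the direction of the locus: RefSeq has the gene on the minus strand of GRCm38.p6, so that its upstream side is the higher side, where Lrmda lies. The run is the 250 bases before the gene start (chr14:21989602-21989851 of GRCm38.p6), read 5′ to 3′ on the strand of the gene, with CpG dinucleotides in capitals.
Zfp503 promoter: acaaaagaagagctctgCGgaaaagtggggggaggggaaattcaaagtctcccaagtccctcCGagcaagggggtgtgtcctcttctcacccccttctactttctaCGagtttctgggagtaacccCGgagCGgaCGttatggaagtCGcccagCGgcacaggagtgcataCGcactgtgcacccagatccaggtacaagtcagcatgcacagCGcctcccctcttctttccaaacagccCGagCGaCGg
It holds 13 CpG dinucleotides, against a median of 6 over 27025 RefSeq promoters, of which 31.8% have as many. On both strands it has 0 matches to TGATTNAT, the motif of Pbx with a Hox partner, which 2.99% of the promoters hold, and 0 to TGACAG, the motif of the TALE factor Meis, which 16.0% hold. It also has 0 matches to TAATTA, a homeodomain motif held by 4.90%. The motifs do not overlap one another here, and a missing match says only that these letters are not in the 250 bases.

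Both loci were rich in limb peaks, and in the windows as drawn they differed in which factor led. The Zfp503 window held 102 Shox2 limb peaks (60 per Mb) and 89 Pbx limb peaks (52.4 per Mb). The Zfp703 window held 42 Shox2 limb peaks (28 per Mb) and 68 Pbx limb peaks (45.3 per Mb). Over the chromosomes as a whole both lists averaged 13.2 peaks per Mb. The Zfp503 locus was thus 4.54 times as dense as the genome in Shox2 and 3.97 times in Pbx, and the Zfp703 locus 2.12 times in Shox2 and 3.44 times in Pbx. The ratio of Shox2 to Pbx limb peaks was 1.15 at Zfp503 and 0.618 at Zfp703. Both lists hold 33915 peaks, and what set that length is not stated, so the ratios depend on where each list ended. They also depend on the window. Within 500 kb of the gene, Zfp503 had 49 Shox2 and 57 Pbx limb peaks per Mb, and Zfp703 had 29 and 50.

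The loci were set among windows of the same length tiled over the genome, which include windows over the loci themselves. The Zfp503 count of Shox2 limb peaks was reached by 2 of 1534 windows and its Pbx count by 10. The Zfp703 count of Shox2 limb peaks was reached by 163 of 1725 windows (9.45%) and its Pbx count by 27 (1.57%). Fewer windows thus reached the Pbx count of Zfp703 than its Shox2 count. These ranks are descriptions, because the window was chosen with the counts of these lists known. They also depend on where it ends: widened by 500 kb on either side, it held 18.4 Shox2 and 32 Pbx limb peaks per Mb. Sites shared by both factors numbered 52 at Zfp503 (30.6 per Mb) and 31 at Zfp703 (20.7 per Mb), against 3.51 per Mb over the genome. Among the tiled windows, 1 of 1534 reached the Zfp503 count and 12 of 1725 reached that of Zfp703. The 1 window that reached the Zfp503 count lay over the Zfp503 locus, and the Zfp703 window is itself among the 12.

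**Figure D1:**
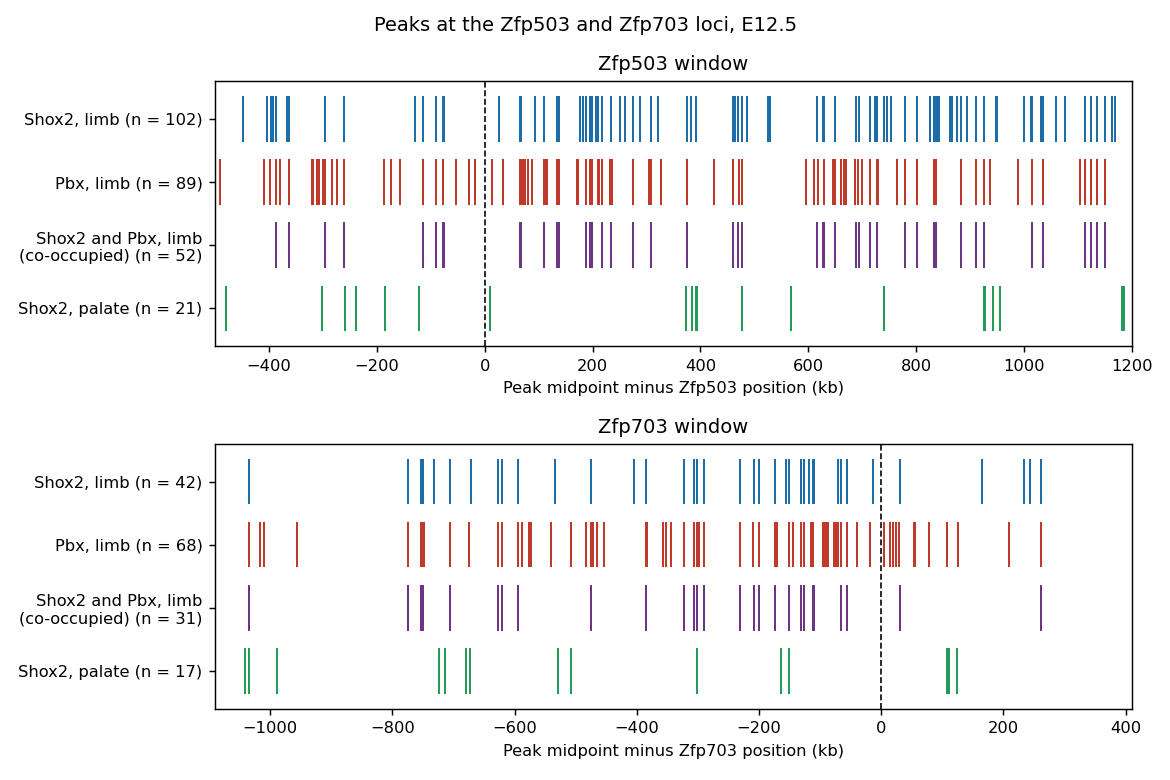
Position of every peak at the Zfp503 locus (above) and the Zfp703 locus (below), as kb from the gene position (dashed line). Each tick is 1 peak midpoint. Rows are Shox2 in limb, Pbx in limb, the limb Shox2 peaks that overlap Pbx, and Shox2 in palate, with their counts, from 102 Shox2 limb peaks at Zfp503 to 17 palate positions at Zfp703. The windows reach 500 kb below and 1200 kb above Zfp503, and 1090 kb below and 410 kb above Zfp703, so the sides are compared over equal arms of 400 kb in the text.

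Shox2 limb peaks and shared sites lay unevenly about each gene. Within 400 kb of Zfp503, the higher side held 30 Shox2 limb peaks and the lower side 12. Shared sites on these sides numbered 14 and 8, and Pbx peaks were more even, with 28 and 23. Around Zfp703 the peaks lay on the other side by coordinate: 5 Shox2 limb peaks within 400 kb on the higher side and 22 on the lower side. Shared sites there numbered 2 and 18, and Pbx peaks 12 and 32. By gene order these denser sides are the one toward Lrmda and Kcnma1 at Zfp503 and the one toward Thap1 at Zfp703. The strand of Zfp703 was not read here. Whether the denser sides differ or match relative to the direction of transcription is therefore not stated. The gene positions are known to 10 kb, and moving them by that much to either side changed these counts on the higher side by at most 1.

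Distances to the gene position depend on how far the windows reach. No distance for evenly placed peaks was set beside them, so they do not show whether peaks lay near or far. The median distance to the gene position was 530 kb for Shox2 limb peaks at Zfp503 and 276 kb at Zfp703, and for Pbx peaks it was 321 kb at Zfp503 and 275 kb at Zfp703. The windows reach unequally far to the 2 sides, and within 500 kb of each gene the Shox2 medians were 251 kb at Zfp503 and 174 kb at Zfp703, and the Pbx medians 212 kb at Zfp503 and 137 kb at Zfp703.

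At the gene positions used, the nearest limb peak to each was a Pbx peak. The positions are known to 10 kb, and at Zfp703 the order depends on that. With Zfp703 placed 10 kb lower, a Shox2 limb peak would be the nearest. Within 50 kb of the Zfp503 position lay 4 Pbx peaks, none of which overlapped a Shox2 limb peak. The nearest of them, chr14:22812447-22815235, was 2789 bp wide and was centred 13.8 kb from the 22.80 Mb position. The nearest Shox2 limb peak, chr14:22826076-22826315, was 26.2 kb away, met no Pbx peak and stood at line 33613 of the 33915 lines of its list. The nearest shared site, chr14:22865373-22865900, was 65.6 kb away.

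Within 50 kb of the Zfp703 position lay 7 Pbx peaks, and 1 of them overlapped Shox2. The nearest, chr8:28094210-28096168, was 1959 bp wide and centred 5.19 kb from the 28.09 Mb position. The nearest Shox2 limb peak, chr8:28076381-28076575, lay 14 kb away without Pbx, and the nearest shared site, chr8:28119878-28120409, lay 30.1 kb away. Farther out the share of Pbx peaks with Shox2 was 11 of 23 at Zfp503 and 7 of 22 at Zfp703 between 50 and 200 kb, and 32 of 62 at Zfp503 and 18 of 39 at Zfp703 beyond 200 kb. Over the whole list 23.4% of Pbx peaks overlap Shox2, and with 4 and 7 Pbx peaks within 50 kb no difference from that share is read from these counts.

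Shox2 limb peaks ran on beyond the Zfp503 window, at 62 per Mb below it and 50 per Mb above it. Shared sites were sparser there than inside, at 16 and 14 per Mb against 30.6. Both were few beyond the Zfp703 window. The 500 kb below the Zfp503 window held 31 Shox2 limb peaks, 16 Pbx peaks and 8 shared sites. The 500 kb above it held 25 Shox2 limb peaks, 13 Pbx peaks and 7 shared sites. Of these shared sites, 1 bin of 100 kb held 7 of the 8 below, and 1 bin held 5 of the 7 above. In the 500 kb below the Zfp703 window lay 3 Shox2 limb peaks, 9 Pbx peaks and 0 shared sites, and in the 500 kb above it 1 Shox2 limb peak, 3 Pbx peaks and 1 shared site. The 9 Pbx peaks are 18 per Mb, above the genome mean of 13.2 per Mb. At the lower edge of the Zfp503 window the last Pbx peak outside was 5.01 kb from the edge and the first inside 8.60 kb from it. At the higher edge of the Zfp703 window the first Shox2 limb peak outside was 333 kb from the edge and the last inside 148 kb from it. At its lower edge the nearest Pbx peak outside was 26.8 kb from the edge and the nearest inside 55.6 kb from it.

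**Figure D2:**
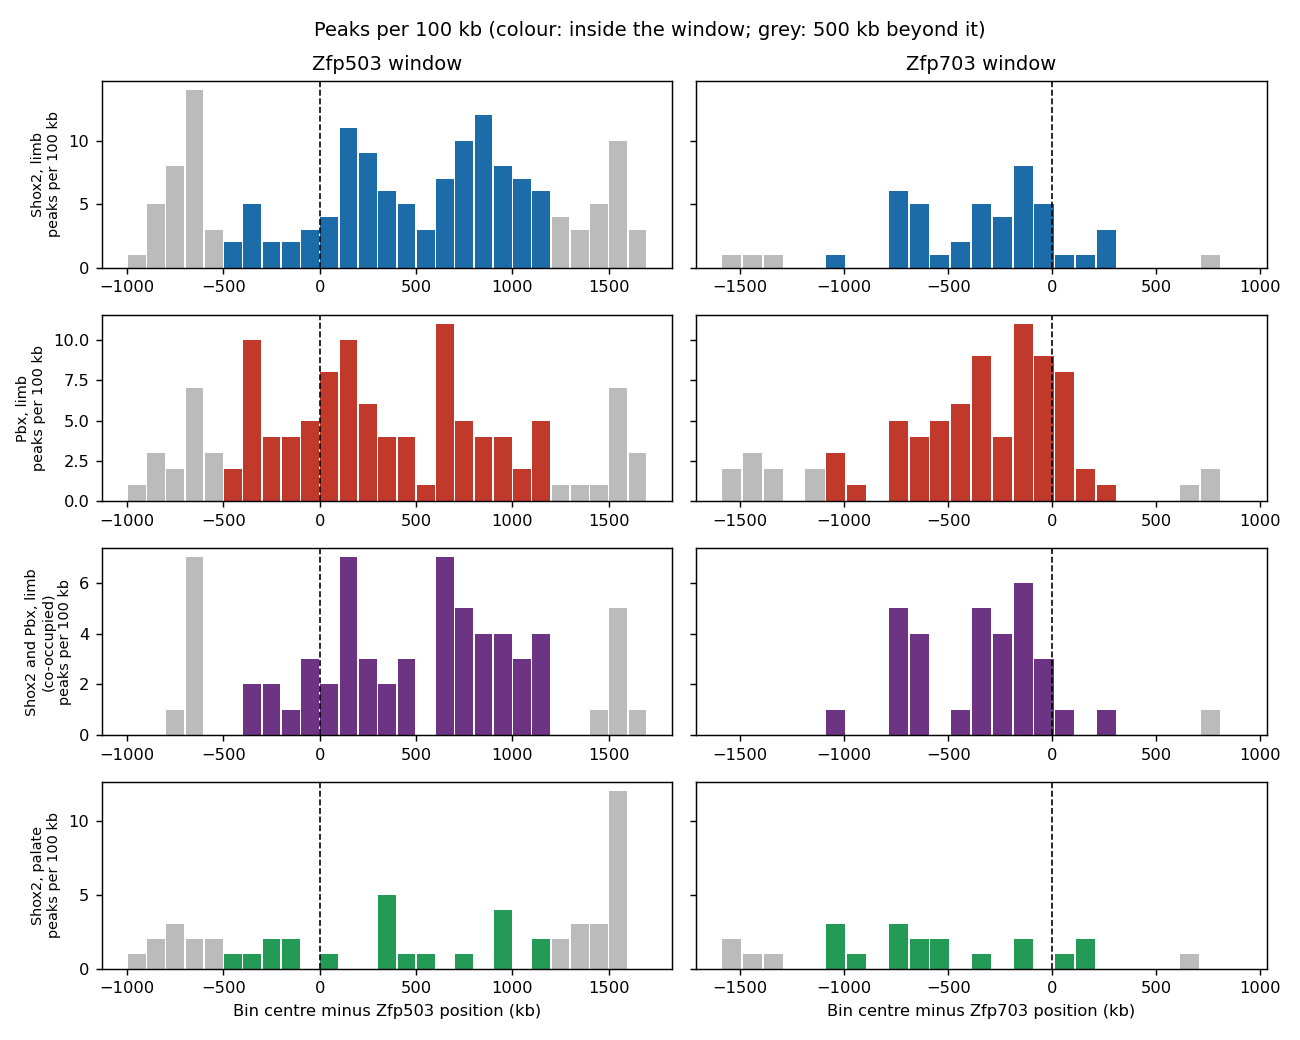
Peaks per 100 kb along the Zfp503 window (left) and the Zfp703 window (right), by distance of the bin centre from the gene position (dashed line) in kb. Coloured bars lie in the window and grey bars in the 500 kb beyond it. Shox2 limb peaks reach 12 per bin at Zfp503 and 8 at Zfp703, and the grey bars beside Zfp703 hold 3 Shox2 limb peaks below the window and 1 above it, with 9 and 3 Pbx peaks.

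Along Zfp503 the peaks were densest in several bins of 100 kb. Shox2 limb peaks were densest from 23.6 to 23.7 Mb (12 in 100 kb), Pbx from 23.4 to 23.5 Mb (11), and shared sites from 22.9 to 23.0 Mb and from 23.4 to 23.5 Mb (7 in each). A further dense bin for Pbx was 22.4 to 22.5 Mb, with 10 Pbx peaks, 5 Shox2 limb peaks and 2 shared sites. From 23.3 to 23.4 Mb, lay 3 Shox2 limb peaks, 1 Pbx peak and 0 shared sites. Along Zfp703 all of them were densest from 27.9 to 28.0 Mb, with 8 Shox2 limb peaks, 11 Pbx peaks and 6 shared sites, in the bin that ends 90 kb below the gene. A stretch from 27.3 to 27.5 Mb was set off by bins with 0 or 1 Shox2 limb peak on either side.

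The overlap of the factors was above that of the whole lists at both loci, in windows that were drawn around shared sites. Pbx peaks were also denser and wider there than in the whole list, and no background matched for this was used. Of the Shox2 limb peaks, 52 of 102 (51.0%, exact binomial interval 40.9 to 61.0%) overlapped a Pbx peak by at least 1 bp at Zfp503, and 31 of 42 (73.8%, interval 58.0 to 86.1%) did at Zfp703, against 26.5% of the whole list. From the other side, 43 of 89 Pbx peaks (48.3%, interval 37.6 to 59.2%) overlapped Shox2 at Zfp503 and 26 of 68 (38.2%, interval 26.7 to 50.8%) at Zfp703, against 23.4% of the whole list. The deposited co-occupied list held the same 52 and 31 sites. Intervals cover the counting of peaks only and treat neighbouring peaks as independent, which they are not. With every peak set to 200 bp around its centre, the Shox2 shares were 26.5% at Zfp503, 40.5% at Zfp703 and 16.4% in the whole list.

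**Figure D3:**
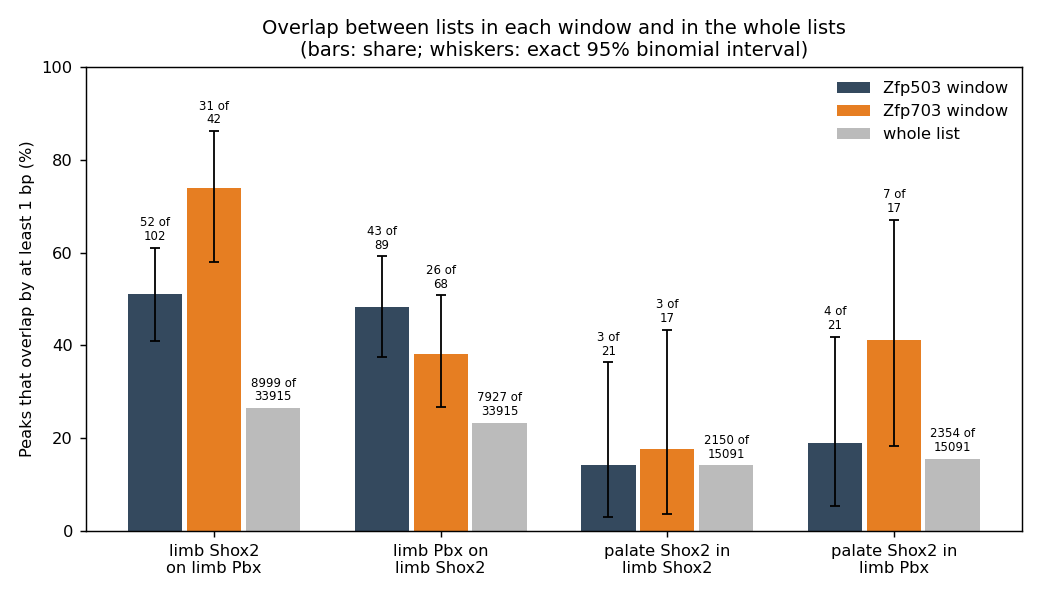
Share of peaks that overlap another list by at least 1 bp (%, axis from 0), in the Zfp503 window, the Zfp703 window and the whole list. Whiskers are exact 95% binomial intervals and the numbers over the bars are counts. Limb Shox2 peaks lie on Pbx in 51.0% at Zfp503 and 73.8% at Zfp703, against 26.5% of the list, while palate Shox2 positions lie in limb Shox2 peaks in 14.3 and 17.6%, against 14.2%.

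At shared sites, which overlap by definition, Shox2 and Pbx peak centres lay a median of 191 bp apart at Zfp503 and 198 bp apart at Zfp703, against 142 bp over all 8999 shared sites. The Shox2 peak lay wholly within the Pbx peak at 46 of 52 sites (88.5%) at Zfp503 and at 31 of 31 at Zfp703, against 87.5% of all. Some Pbx peaks held several Shox2 peaks: 7 of the 43 at Zfp503 and 5 of the 26 at Zfp703 held 2 or more, and over the whole list 12.1% did. A Pbx peak with 3 Shox2 peaks, chr14:23427122-23430079, lay 629 kb above Zfp503, and another, chr14:23725018-23727032, lay 926 kb above it.

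Joined across gaps of at most 10 kb, the shared sites made 34 groups at Zfp503, of which 21 were single sites, and 20 at Zfp703, of which 12 were single. The largest groups at Zfp503 held 4 shared sites each, chr14:22987079-22999839 over 13 kb and chr14:23416795-23429265 over 12 kb. The largest at Zfp703 held 3 each, and one of them, chr8:28023991-28033847, had its centre at -61.1 kb from the gene position. Shared sites were thus not gathered in 1 block in either window. Nor did they fill the windows: bins of 100 kb without one numbered 2 of 17 at Zfp503 and 5 of 15 at Zfp703. Within 400 kb of Zfp703, 18 lay below the gene and 2 above it.

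Wide peaks tend to come first in the limb files. The median width was 441 bp in the first 20% of the Shox2 list and 204 bp in the last 20%, and 1279 and 705 bp for Pbx. That order may be a ranking, although no file says so. The palate positions are all 1 bp wide, so width gives no such ground for the palate list, and its lines are file order only. The first sites of each locus stood near the very top of the limb lists. At Zfp503 the Shox2 limb peaks chr14:23428447-23429265 and chr14:23416795-23417535 were lines 11 and 15 of 33915. They were followed by chr14:22685566-22686252 (line 60), chr14:22987079-22987731 (line 61) and chr14:22723624-22724218 (line 341). All 5 lay on Pbx and none held a palate position. The line 341 site lay in the Pbx peak chr14:22722128-22725089, 76.4 kb below the gene, which was line 6 of the Pbx list and 2962 bp wide.

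At Zfp703 the Shox2 limb peak chr8:27315940-27316718, 774 kb below the gene, was line 7. The next were chr8:27704534-27704901 (line 209), chr8:27939013-27939288 (line 217), chr8:28024305-28025050 (line 307) and chr8:27857974-27858767 (line 443). All 5 lay on Pbx here too, and the line 217 site also held a palate position. The Pbx peak under the last of them, chr8:27857496-27860285, was the first of the locus in the Pbx list, at line 129. It was followed by chr8:27314474-27317349 (line 168), which holds the line 7 Shox2 peak, and by chr8:28118474-28120610 (line 214), 29.5 kb above the gene.

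The other leading Pbx peaks of Zfp503 were chr14:22708504-22712054 (line 75), chr14:23468180-23472195 (line 135), chr14:22684841-22687240 (line 200) and chr14:23173722-23175226 (line 242). The line 135 peak was the widest of the locus at 4016 bp and held no Shox2, and neither did the next widest, chr14:22477194-22480994 (3801 bp). At Zfp703 the leading peaks chr8:28071179-28073137 (line 229) and chr8:27917845-27919953 (line 332) had no Shox2 either. The earliest Pbx peaks of either locus were thus not all shared, while the earliest 5 Shox2 limb peaks of each were. Sharing was also more common early in the whole lists. In their first 20%, 3165 of 6783 Shox2 limb peaks and 2721 of 6783 Pbx peaks were shared. With 5 peaks per list and locus, in windows drawn around shared sites, no difference between the factors is read from these counts.

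Pbx peaks of both loci stood high in their list to the same degree. Their median place was 20.5% of the way down the list at Zfp503 and 20.3% at Zfp703, and 44 of 89 (49.4%) and 33 of 68 (48.5%) lay in the first 20% of the list. They were also wide, with medians of 1294 bp at Zfp503 and 1207 bp at Zfp703, against 897 bp in the whole list. Most of this lay with the Pbx peaks that overlapped Shox2: their median place was 9.12% at Zfp503 and 2.63% at Zfp703, against 33.0% for all Pbx peaks with Shox2. Pbx peaks without Shox2 had medians of 39.5% at Zfp503 and 41.4% at Zfp703, against 54.9% for all such peaks, and widths of 1033 bp at Zfp503 and 924 bp at Zfp703, against 853 bp.

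Shox2 limb peaks showed less of this at Zfp503, with a median place of 45.6%, than at Zfp703, with 29.5%. In the first 20% of the list lay 27 of 102 at Zfp503 and 17 of 42 at Zfp703. Shox2 limb peaks on Pbx stood at a median of 27.0% at Zfp503 and 18.6% at Zfp703, against 33.6% for all such peaks. Those without Pbx stood at 53.7% at Zfp503 and 63.8% at Zfp703, against 55.0%. Among peaks of the first 50% of the list, 36 of 58 at Zfp503 and 25 of 28 at Zfp703 lay on Pbx, against 34.6% of all peaks there. In the rest of the list the counts were 16 of 44 at Zfp503 and 6 of 14 at Zfp703, against 18.5%.

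**Figure D4:**
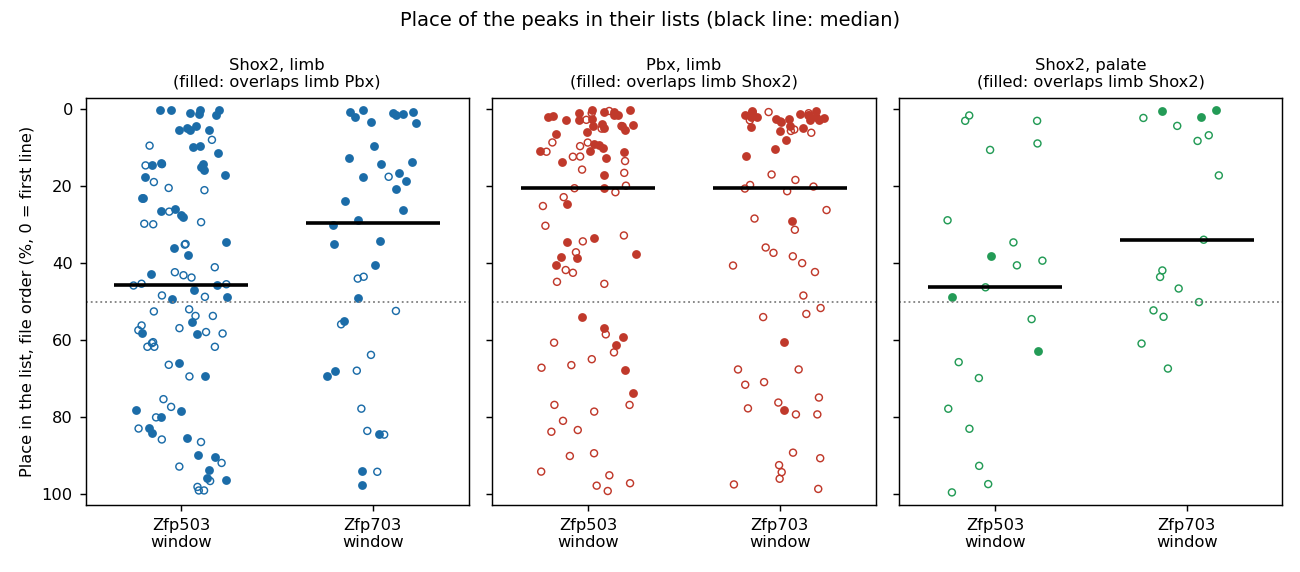
Place of each peak in its list by file order (%, first line at the top), for Shox2 in limb, Pbx in limb and Shox2 in palate, with the Zfp503 window left of the Zfp703 window in each panel. Filled points overlap the list named above the panel, open points do not, black lines are medians, and the dotted line marks the middle of the list. Pbx medians are 20.5% at Zfp503 and 20.3% at Zfp703, and filled points gather at the top of the limb panels.

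The palate list held fewer Shox2 positions at both loci, most of them outside the limb peaks. The Zfp503 window held 21 palate positions (12.4 per Mb) and the Zfp703 window 17 (11.3 per Mb), against 5.88 per Mb over the genome. Tiled windows with as many numbered 167 of 1534 (10.9%) and 260 of 1725 (15.1%). At Zfp503 there were 4.86 Shox2 limb peaks for each palate position and at Zfp703 2.47, and the ratio of the whole lists is 2.25. Depth and the rule that ended each list are unknown, so a difference between the libraries cannot be told apart from one between the tissues.

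Few palate positions coincided with limb Shox2 peaks. At Zfp503, 3 of 21 (14.3%, exact interval 3.05 to 36.3%) lay inside a limb Shox2 peak, and at Zfp703 3 of 17 (17.6%, interval 3.80 to 43.4%), close to the 14.2% of the whole palate list. The palate positions are 1 bp wide, so near misses are not counted. Within 500 bp of a limb Shox2 peak lay 7 of 21 (33.3%) at Zfp503 and 3 of 17 at Zfp703. No share of the whole list at that distance is given here. Seen from the limb, 3 of 102 Shox2 limb peaks at Zfp503 and 3 of 42 at Zfp703 held a palate position, against 6.28% of the list. Of the 11 bins of 100 kb with at least 5 Shox2 limb peaks at Zfp503, 6 held palate positions (14 of the 21) and 5 held none. At Zfp703 4 of 5 such bins held palate positions (8 of the 17). The 5 without at Zfp503 included the densest limb bin, from 23.6 to 23.7 Mb, and both bins densest in shared sites. Counting all bins, 6 of 17 at Zfp503 and 6 of 15 at Zfp703 held no palate position. The median bin of 100 kb over the genome held 0, so a bin without one is common. Palate positions were densest from 23.1 to 23.2 Mb (5), where 6 Shox2 limb peaks lay.

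Few places carried all 3 marks, counted as a limb Shox2 peak that overlapped Pbx and held the 1 bp palate position. At Zfp503 chr14:23726469-23726753, 927 kb above the gene, was such a site, at line 5059 of the limb list and line 7352 of the 15091 lines of the palate list. At Zfp703 there were 3 such sites, and they held early lines of the palate list. The site chr8:27055386-27055585, 1035 kb below the gene, held palate line 19. The site chr8:27939013-27939288, 151 kb below the gene, held palate line 63, and chr8:27788052-27788614, 302 kb below it, held palate line 282. These were the first 3 palate positions of the Zfp703 locus. In the whole list too, palate positions inside a limb Shox2 peak came earlier, at a median place of 29.4% against 53.1% for the others. At Zfp503 the 3 positions inside a limb Shox2 peak had a median place of 48.7%. With 3 positions per locus and lines that are file order only, no difference between the loci is read from them. Over the whole limb list 2.30% of Shox2 peaks carried all 3 marks, and at the loci 1 of 102 at Zfp503 and 3 of 42 at Zfp703 did. Counted by Pbx peaks that overlapped limb Shox2 and held a palate position anywhere, there were 3 of 89 at Zfp503 and 3 of 68 at Zfp703, against 2.96% of all Pbx peaks. The 2 added at Zfp503 held the palate positions at 23174148 and 23277403, which missed a limb Shox2 peak by 40 and 237 bp.

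Some palate positions outside every limb Shox2 peak lay in a limb Pbx peak, 3 at Zfp503 and 4 at Zfp703. For 2 of the 3 at Zfp503 that Pbx peak also overlapped a limb Shox2 peak. At Zfp503 4 of 21 positions (19.0%, interval 5.45 to 41.9%) lay in a limb Pbx peak, and at Zfp703 7 of 17 (41.2%, interval 18.4 to 67.1%), against 15.6% of the palate list. From the Pbx side, 4 of 89 peaks at Zfp503 held a palate position and 6 of 68 at Zfp703, against 6.62% of all Pbx peaks. With limb Pbx peaks set to 200 bp, the palate positions on them numbered 0 of 21 at Zfp503 and 3 of 17 at Zfp703. On the higher side of Zfp703, the Pbx peak chr8:28195014-28201192 was 6179 bp wide, the widest of both loci, and held the palate positions at 28198315, the nearest to the gene at 108 kb, and at 28200536. The palate position at 28214899 (line 1013) lay in the next Pbx peak. The nearest limb Shox2 peak to these positions was 40104 to 56688 bp away, and these 3 were all the palate positions on that side of the gene.

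At Zfp503 the earliest palate positions were elsewhere. Line 236, at 22320069, was 31114 bp from the nearest limb Shox2 peak. Line 446, at 22499015, lay in a Pbx peak 5043 bp from limb Shox2, and line 447, at 23727404, lay 651 bp from the limb Shox2 peak of the site with all 3 marks. Line 1334, at 23277403, was in a Pbx peak and 237 bp from limb Shox2, and line 1588, at 23986167, met neither. The palate position nearest to the gene, at 22810630, lay 10.6 kb from the 22.80 Mb position and 1817 bp from the nearest Pbx peak, late in the palate list at line 12535. At Zfp703 the next early positions, line 333 at 27925871 and line 645 at 27365851, met no limb peak and lay 9091 and 8348 bp from the nearest limb Shox2 peak.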

How the data were processed

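The peak lists were deposited by the authors as chromosome, start and end, 1 list per library, with no height, score or p-value, so the depth behind a peak is unknown. The tools were Bowtie and MACS2 and the build mm9, per the submitters' processing notes; no version, setting or control for the lists is named in these sources. The limb lists hold intervals, and the palate list holds positions of 1 bp. A further deposited list names co-occupied regions. Windows, gene positions and lists of sites were chosen with earlier results of these data known. Positions are 1-based. Overlap means at least 1 bp. Genome densities use the span between the first and last peak of chromosomes 1 to 19 and X. Named sites are the nearest peak of each list to the gene, the 5 earliest in file order, the 3 widest Pbx peaks, all sites found in 3 lists, the densest 100 kb bins and the largest clusters. With 1 library per group there is no replicate error and no test was run; 95% intervals are exact binomial (Clopper-Pearson). The code was tested on simulated intervals. Python 3.11.15, NumPy 2.4.6, pandas 2.3.3, SciPy 1.17.1 and matplotlib 3.10.9 were used.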

Additional observations from a re-analysis of the deposited data

How the results depend on the processing

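Of 82 alternative values for 30 results, 60 stayed within the interval of the reported share or within 1.5 times the reported count, density or distance, and 22 did not. With every peak set to 200 bp, the Shox2 limb shares on Pbx were 26.5% at Zfp503 and 40.5% at Zfp703, and the Pbx shares on Shox2 30.3% and 25%. Requiring 50% of the Pbx peak left 11.2% at Zfp503 and 1.47% at Zfp703, which follows from Pbx peaks being wider than Shox2 peaks, and requiring its centre left 32.6% and 22.1%. With limb Pbx peaks set to 200 bp, palate positions on them were 0% at Zfp503 and 17.6% at Zfp703. The first 50% of each list, which removes peaks by construction, gave 34.1 Shox2 limb peaks, 16.5 shared sites and 7.06 palate positions per Mb at Zfp503. Widening the windows by 500 kb gave 18.9 palate positions per Mb at Zfp503, and 18.4 Shox2 limb peaks and 12.8 shared sites per Mb at Zfp703. Within 500 kb of Zfp703 there were 6 palate positions per Mb. The same limit lowered the median distances by construction, for Shox2 to 251 kb at Zfp503 and 174 kb at Zfp703 and for Pbx to 212 and 137 kb. With the tiling moved by 50% of a window, 0% of windows reached the shared count of Zfp503. Moving the gene positions by 10 kb was chosen after seeing the data. No paired analysis was possible because the groups hold single libraries, and none could be left out.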

Other observations

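Above the Zfp503 window, which ends at 24 Mb, lay the 100 kb bin with the most palate Shox2 positions in the genome. It was chromosome 14 from 24.3 to 24.4 Mb (1.5 Mb above the gene). It held 12 palate positions over 68.1 kb, with 10 Shox2 limb peaks, 7 Pbx peaks and 5 shared sites. Of the 12 positions, 6 lay in a limb Shox2 peak and 4 in a Pbx peak, and 5 stood in the first 20% of the palate list, the earliest at line 181. Of all palate positions, 14.2% lay in a limb Shox2 peak and 15.6% in a Pbx peak. Inside the window 3 of 21 palate positions lay in a limb Shox2 peak. The bin was singled out after its values were seen, and it was not assigned to a gene.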
